A study of Homo sapiens with 21 samples.

Results

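The 35 genes described here encode the protein folding machinery of the endoplasmic reticulum (ER), the enzymes of ER-associated degradation, and the sensors and transcription factors of the unfolded protein response. They were chosen by name, with earlier results of these data known, and were found by gene symbol through the Ensembl identifiers of a table of 37637 features. All 35 were matched, and 34 passed the filter on low counts. By role, 11 belong to the HSP70 system and its partners, 2 are lectin chaperones, 6 are disulfide isomerases and oxidases, 1 is a translocon subunit, 10 act in ER-associated degradation and 5 are sensors or transcription factors. The exception to the filter was DERL3, a member of the Derlin family of degradation factors, which had 1 count in 1 of 21 libraries. A limit of 3 counts per library corresponded to 0.0669 to 0.128 CPM (counts scaled to a common library size), so DERL3 was not detectable above that level.

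The measurements are gene-level read counts from HepG2, a human hepatocellular carcinoma line, which serves as a model of the hepatocyte but is a single tumour line. Cells were moved from serum-containing DMEM to serum-free DMEM and kept for 24 h with caffeine at 0.01, 0.1, 1, 10, 100 or 1000 µM, or with none, so the control cells also lacked serum. Each of the 7 groups had 3 libraries, described as biological replicates. Total counts per library ran from 23502519 to 44815552.

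The ER folds and glycosylates proteins bound for secretion, a heavy load in hepatocytes, which export most plasma proteins. When unfolded proteins build up, the membrane proteins ERN1 (IRE1), EIF2AK3 (PERK) and ATF6 signal to the nucleus. ERN1 splices the XBP1 mRNA, EIF2AK3 phosphorylates a translation initiation factor and thereby favours translation of ATF4, and ATF6 moves to the Golgi, where MBTPS1 and MBTPS2 cut it to release a transcription factor. The XBP1 protein and cleaved ATF6 act through ER stress response elements (ERSE) in the promoters of chaperone genes. Gene-level counts measure total mRNA, and show neither XBP1 splicing, nor ATF6 cleavage, nor kinase activity.

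The ERSE in its full form reads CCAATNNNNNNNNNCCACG. It was searched on both strands from 250 bases before to 50 bases after each annotated start in RefSeq (GRCh38.p14), where 32 of the 35 genes had a window. Of all 27305 genes with a window 25 held it (0.0916%), and 8 of the 32 did. These 8 sites are printed 5′ to 3′ in the direction of the motif, since the genes that carry them include the main chaperones. Capitals mark the fixed bases of the element.
HSPA5, chr9:125241391-125241409, on the gene's strand: CCAATcggcggcctCCACG
HSP90B1, chr12:103930216-103930234, on the gene's strand: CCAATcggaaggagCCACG
CALR, chr19:12938384-12938402, on the opposite strand: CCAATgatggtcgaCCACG
CANX, chr5:179698778-179698796, on the gene's strand: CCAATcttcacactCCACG
PDIA6, chr2:10812853-10812871, on the gene's strand: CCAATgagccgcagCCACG
CRELD2, chr22:49918554-49918572, on the opposite strand: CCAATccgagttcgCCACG
XBP1, chr22:28800603-28800621, on the gene's strand: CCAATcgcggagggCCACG
ERO1B, chr1:236282183-236282201, on the opposite strand: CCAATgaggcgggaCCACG

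HSP90B1 held a further copy nearer its start, at chr12:103930321-103930339 on the opposite strand. The 250 bases before the start of HSPA5, chr9:125241344-125241593 on the minus strand, show the element in its setting, 66 to 48 bases before the start, here with its spacer also in capitals. This promoter is printed because HSPA5 encodes the chaperone on which the response turns.
HSPA5 promoter: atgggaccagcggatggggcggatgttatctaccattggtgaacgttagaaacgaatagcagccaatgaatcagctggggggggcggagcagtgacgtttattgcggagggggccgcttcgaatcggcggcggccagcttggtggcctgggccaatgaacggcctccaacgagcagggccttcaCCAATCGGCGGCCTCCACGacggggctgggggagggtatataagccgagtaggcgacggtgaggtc

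The shorter ERSE-II, ATTGGNCCACG, was present in 0.0696% of genes with a window and in HERPUD1, HYOU1 and SDF2L1 among the 32. The core of the unfolded protein response element, TGACGTGG, was present in 0.927% of genes and in DNAJC10 and HYOU1. A match describes the letters in the window and not binding by a factor.

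Within some dose groups the libraries differed from each other, which bears on every comparison described here. Clustering on the counts of the 13 mitochondrial mRNAs gave 3 library sets. Set A held 11 libraries (the control, 0.01 µM and 0.1 µM groups, and 1 µM replicates 1 and 2), with 9.95% to 14.2% of counts from mitochondrial transcripts. Set B held 7, with 4.72% to 4.94%: the whole 10 µM group, 1 µM replicate 3, 100 µM replicate 2, and 2 of the 3 at 1000 µM (replicates 1 and 2). The other 3 high-dose libraries, 100 µM replicates 1 and 3 and 1000 µM replicate 3, made up set C, with 11.8% to 12.8%. No control was in set B or C. The 10 µM group lay wholly in set B and those of 100 and 1000 µM in sets B and C, so dose and set are confounded at these 3 doses. The counts of calls against control, and the values of most members described, are therefore also given from a fit with the library set as a term, called set-adjusted here, and 1000 µM was compared with 10 µM inside set B. The link between set A and the other sets was a single library, 1 µM replicate 3, so that every set-adjusted value for 10, 100 or 1000 µM against control rests on it. All comparisons with control share the same 3 control libraries. Of the hepatocyte markers 9 of 9 were present, at a summed 34645 to 42832 CPM in control and 28173 to 29541 CPM at 1000 µM. Between these groups mean ALB went from 12469 to 6334 CPM, AFP from 5365 to 2037 CPM and SERPINA1 from 6470.3 to 3695 CPM, while APOB went from 8277 to 13514 CPM. The leukocyte marker PTPRC reached at most 0.0383 CPM and CD3E was 0 in every library, while LYZ went from a mean of 943 CPM in control to 1663 CPM at 1000 µM, and CD68 from 47.6 to 27.5 CPM. The endothelial markers VWF and CDH5 summed to at most 0.283 CPM (PECAM1 and KDR were not analysed here), and collagens COL1A1, COL1A2 and COL3A1 reached at most 0.0611 CPM each, while PDGFRB was at 3.52 CPM in control and 20.02 CPM at 1000 µM. The part of these markers in any result was not tested. In bulk RNA, fewer cells of a type and less RNA per cell cannot be told apart.

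In control cells the most abundant of these transcripts were chaperones and disulfide isomerases, and the sensors ATF6 and ERN1 were among the least abundant. Per kilobase of exon (GENCODE 29), CALR was at 633 ± 36.9 CPM (SD, n = 3). It was followed by HSPA5 at 378 ± 9.68, HSP90B1 at 365 ± 54.0 and P4HB at 357 ± 29.1, whose ranges overlapped. PDIA3 at 221 ± 32.8 and CANX at 221 ± 23.6 also overlapped, with PDIA4 at 204 ± 5.16 and PDIA6 at 184 ± 8.26 next. Among the regulators, XBP1 stood at 145 ± 14.7 CPM per kilobase, CREB3L2 at 14.04 ± 0.556, EIF2AK3 at 9.75 ± 1.12, ATF6 at 2.35 ± 0.207 and ERN1 at 1.69 ± 0.127. The lowest detected member was ERO1B, at 0.819 ± 0.189 CPM per kilobase. All other levels are CPM per gene, not divided by length.

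The 3 lowest doses gave no call among the 34 members in the quasi-likelihood test of edgeR, at an adjusted p of 0.05. At 0.01 µM 0.0279% of all features were called, at 0.1 µM 0% and at 1 µM 0.106%. An unadjusted p under 0.05 was reached by 8, 6 and 7 members in that order, and by 15%, 9.48% and 15.7% of all features. DESeq2 called 2 members at 0.01 µM (HERPUD1 and PDIA6, higher), 0 at 0.1 µM and 4 at 1 µM (SEC61B, HERPUD1 and PDIA6 higher, CANX lower), where it called 2.15%, 0.295% and 2.28% of all features. The set-adjusted fit called 0 members at each of these doses, where it called 3.02%, 0.0223% and 0.629% of all features. In it 13, 12 and 11 members had an unadjusted p under 0.05, as had 23.4%, 15.4% and 17.1% of all features. At 10 µM 6 members were called by edgeR, where 14.8% of all features were (7.27% higher, 7.49% lower): SEC61B, EDEM1, DNAJC3 and EDEM2 higher, CALR and CANX lower. The set-adjusted fit called 0 members at 10 µM (0.0279% of all features), and 2 had an unadjusted p under 0.05 there, as had 4.94% of all features. The 6 calls therefore cannot be told apart from the difference between sets A and B.

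At the top of the dose range the roles differed in their balance of rises and falls, a difference that was not tested. At 100 µM 17 of 34 members were called, 11 higher and 6 lower, where 46.6% of all features were called (23.6% higher, 22.9% lower). At 1000 µM 27 were called, 13 higher and 14 lower, where 57.6% of all features were (28.5% higher, 29.1% lower). The share of members called was thus above this background at the highest dose and close to it at 100 µM. Features of low count are part of that background. In a fit of only the features averaging 5 CPM or more, 7421 of 11112 were called at 1000 µM and 6165 of 11112 at 100 µM. Of the 19 chaperones and folding enzymes 4 rose and 11 fell at 1000 µM, with a median log2 fold change of -0.42 against -0.01 over all features. Of the 9 tested degradation genes 5 rose and 2 fell (median 0.20), and of the 5 sensors and transcription factors 3 rose and 1 fell (median 0.64). Set-adjusted, 3 of the chaperones and folding enzymes rose and 8 fell (median -0.24), 2 degradation genes rose and 2 fell (median 0.10), and 3 sensors and transcription factors rose and 1 fell (median 0.67), against a median of -0.03 over all features. Inside set B, for 1000 against 10 µM, 6 and 12 of the chaperones and folding enzymes were higher and lower (median -0.30), 4 and 3 of the degradation genes (median -0.02), and 3 and 1 of the sensors and transcription factors (median 0.42). Of all features 38% were called in the set-adjusted comparison and 69.1% inside set B (34.1% higher, 35% lower, median -0.01). Against 100 µM, where 44% of all features were called, 5 degradation genes were higher (EDEM3, EDEM1, HERPUD1, SEL1L and DERL1) and 0 lower, beside 3 higher and 12 lower of the chaperones and folding enzymes. SEL1L did not pass in the set-adjusted form of that comparison (adjusted p = 0.108). Of the 34 members 27 had their 3 libraries at 1000 µM wholly above or wholly below the 3 controls, as had 56.6% of all features.

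**Figure D1:**
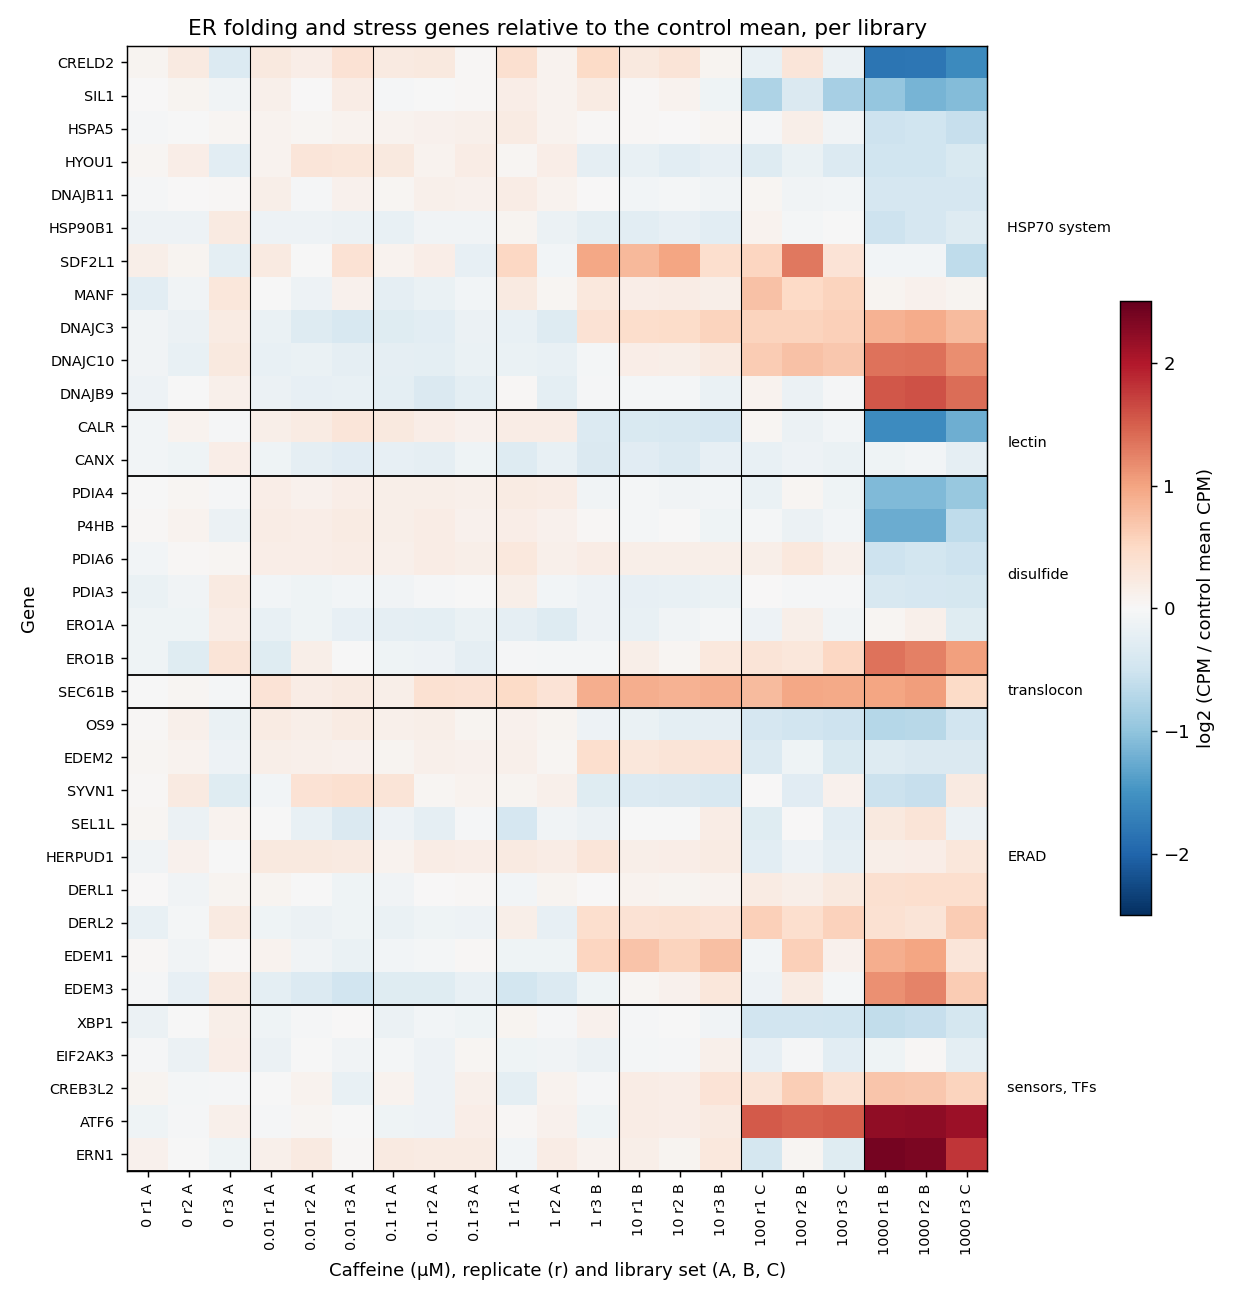
Log2 ratio of CPM to the control mean for the 34 tested genes (rows, grouped by role and ordered by their change at 1000 µM) in each of the 21 libraries (columns, with caffeine dose, replicate and library set). The columns at 1000 µM hold the deepest colours, blue for CRELD2 and CALR and red for ATF6 and ERN1, while the columns up to 1 µM are mostly pale.

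Set-adjusted calls at 1000 µM numbered 20 (9 higher, 11 lower), where 38% of all features were called (18.2% higher, 19.8% lower), and all 20 had been called in the same direction without it. The 7 that dropped out were HERPUD1, DERL2, DNAJC3, EDEM1, HYOU1, HSP90B1 and PDIA3. At 100 µM 7 set-adjusted calls were made, where 17.3% of all features were called (9.14% higher, 8.21% lower): ATF6, DNAJC10, SEC61B and CREB3L2 higher, XBP1, SIL1 and EDEM2 lower. Inside set B, where 1000 µM (2 libraries) was set against 10 µM (3 libraries), 29 members were called, 13 higher and 16 lower, where 69.1% of all features were (34.1% higher, 35% lower). The same 2 doses compared in the set-adjusted fit of all 21 libraries gave 24 calls (59.1% of all features), without SEL1L, SYVN1, CANX, HYOU1 and ERO1A. The direct comparison of 1000 µM with 100 µM called 22 members, 10 higher and 12 lower, where 44% of all features were (21.8% higher, 22.3% lower). A joint test of the 6 doses called 29, where 73.6% of all features were, and 29 were called in its set-adjusted form (59.8%).

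Another way to see the highest dose is to ask which genes had their 3 libraries at 1000 µM outside the range of the 18 others, of all sets. This held for 8 members above (23.5% of 34) and 11 below (32.4%). Over all tested features the shares were 13% above and 12.3% below. The 8 above were ATF6, ERN1, DNAJB9, DNAJC10, DNAJC3, ERO1B, EDEM3 and DERL1. The 11 below were CRELD2, CALR, SIL1, PDIA4, P4HB, HSPA5, PDIA6, HYOU1, DNAJB11, HSP90B1 and PDIA3, all of them chaperones, cochaperones or disulfide isomerases.

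Among the sensors, ATF6 and ERN1 rose at 1000 µM and EIF2AK3 did not pass the test. ATF6 (chromosome 1, bases 161766294 to 161964070, plus strand) encodes the membrane-bound transcription factor released by proteolysis. It had 17.2, 18.02 and 20.3 CPM in the 3 control libraries, and 21.0, 20.8 and 21.5 CPM at 10 µM. At 100 µM the libraries had 53.7, 51.4 and 52.7 CPM, and at 1000 µM 85.9, 86.9 and 81.8 CPM. The libraries of the lower doses lay between 16.9 and 21.5 CPM, with a clear gap to 100 µM and another to 1000 µM, and library sets B and C gave like values at each of these doses. Against control the log2 fold change was 1.51 (SE 0.089, adjusted p = 1.96e-10) at 100 µM and 2.20 (SE 0.0904, adjusted p = 4.19e-13) at 1000 µM, a 4.59-fold rise. Set-adjusted values were 1.71 and 2.39, and between 1000 and 100 µM it was 0.69 (adjusted p = 2.83e-06).

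ERN1 (chromosome 17, bases 64039142 to 64130819, minus strand) encodes the kinase and endoribonuclease that splices XBP1. Its control libraries had 19.8, 18.3 and 17.03 CPM and those at 10 µM 20.4, 19.2 and 21.9 CPM. At 100 µM they had 13.6, 19.0 and 14.9 CPM, and at 1000 µM 96.3, 93.9 and 63.6 CPM. ERN1 thus overlapped control at 100 µM and stood far above it at 1000 µM, where the library of set C was the lowest of the 3. Its log2 fold change was -0.21 (SE 0.14, adjusted p = 0.232) at 100 µM and 2.20 (SE 0.142, adjusted p = 1.58e-10) at 1000 µM, a 4.61-fold rise, or 0.085 and 2.33 set-adjusted. Between 1000 and 100 µM it was 2.41 (SE 0.143, adjusted p = 1.21e-10), and inside set B between 1000 and 10 µM 2.19 (SE 0.0622).

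EIF2AK3, the kinase PERK, had 51.8, 47.5 and 59.6 CPM in control and 49.0, 54.3 and 44.8 CPM at 1000 µM. Its libraries overlapped control at all 6 doses, and its log2 fold change at 1000 µM was -0.10 (SE 0.095, adjusted p = 0.378), or 0.017 set-adjusted. XBP1, the transcription factor that ERN1 activates by splicing, fell. It had 395, 439 and 484 CPM in control, 317, 315 and 313 CPM at 100 µM and 288, 293 and 323 CPM at 1000 µM. The libraries of both high doses lay below all controls and overlapped each other. XBP1 had a log2 fold change of -0.48 (SE 0.0759, adjusted p = 4.13e-05) at 100 µM and -0.54 (SE 0.0759, adjusted p = 5.32e-06) at 1000 µM, or -0.61 and -0.65 set-adjusted. CREB3L2, an ATF6-like transcription factor anchored in the ER membrane, rose by 0.44 on the log2 scale at 100 µM and by 0.64 at 1000 µM (adjusted p = 2.16e-05; set-adjusted values 0.53 and 0.67), with a mean of 123 ± 4.89 CPM in control and 192 ± 9.17 CPM at 1000 µM (SD over 3 libraries).

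**Figure D2:**
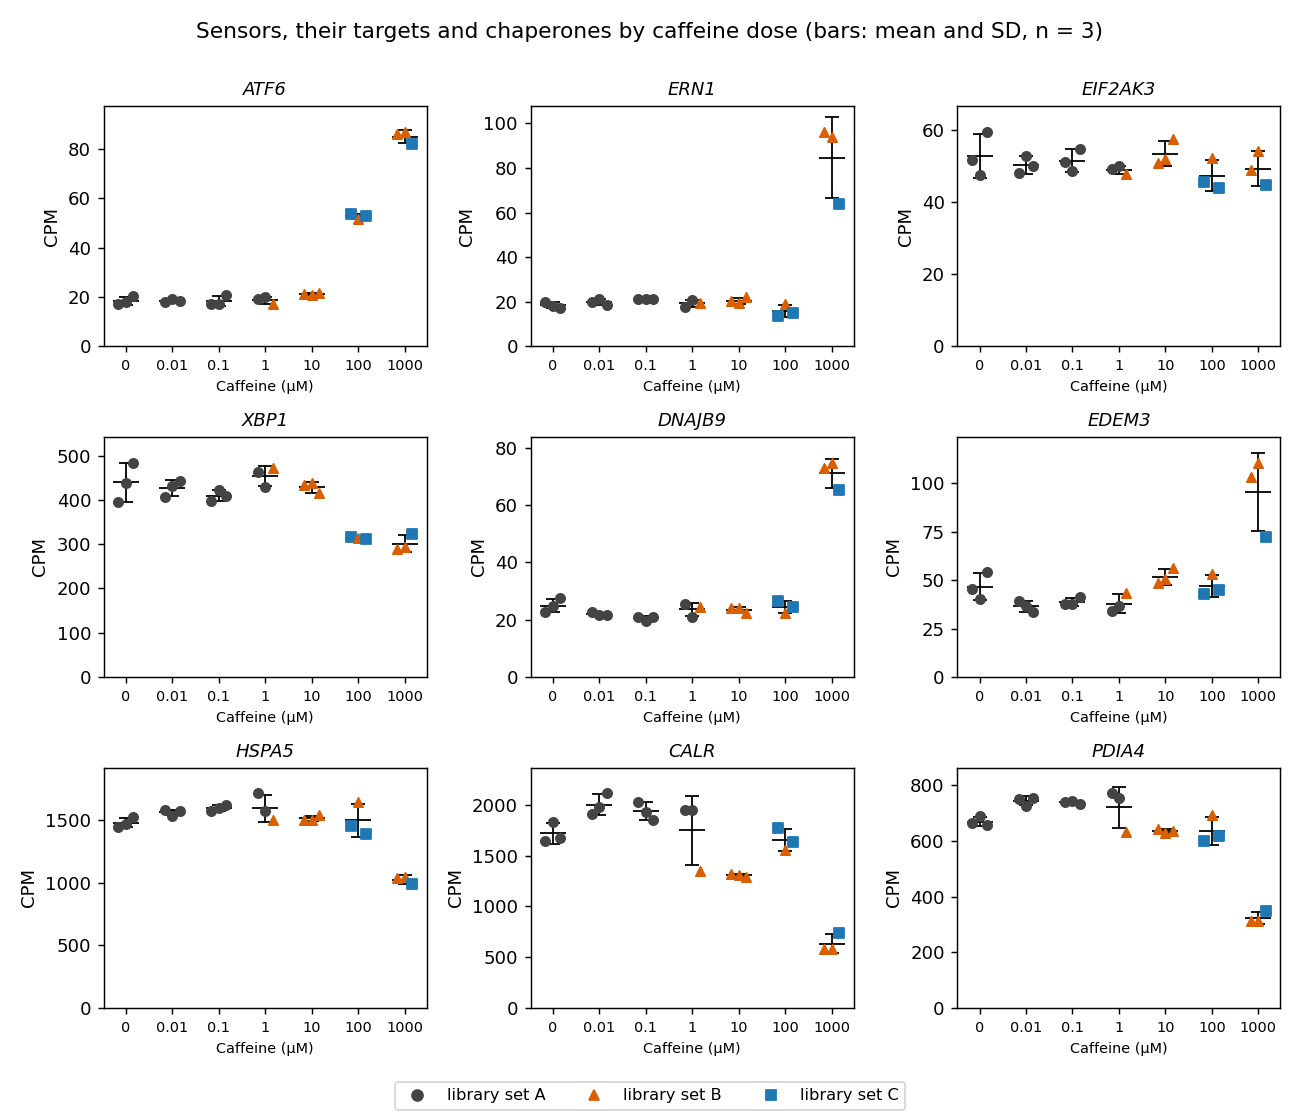
CPM (vertical axes, from 0) of 9 genes by caffeine dose, with 1 point per library coloured by library set and bars for the mean and SD of 3 libraries. ATF6 steps up at 100 µM and again at 1000 µM, ERN1, DNAJB9 and EDEM3 only at 1000 µM, XBP1 is lower at both high doses, and HSPA5, CALR and PDIA4 drop at 1000 µM.

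In the HSP70 system the central chaperone and 5 of its 10 partners fell at 1000 µM, where 28.5% of all features rose and 29.1% fell. Of the J-domain cochaperones, DNAJB9, DNAJC10 and DNAJC3 rose and DNAJB11 was among those that fell. SDF2L1 and MANF did not pass. Set-adjusted, HSPA5 and 3 of these partners fell (CRELD2, SIL1 and DNAJB11), and DNAJB9 and DNAJC10 rose. Of all features 18.2% rose and 19.8% fell in that fit. HSPA5 (BiP; chromosome 9, bases 125234853 to 125241330, minus strand) binds unfolded chains and holds the sensors inactive. It had 1446, 1467 and 1519 CPM in control, 1452, 1645 and 1391 CPM at 100 µM and 1038, 1046 and 985 CPM at 1000 µM. The 18 libraries below 1000 µM stayed between 1391 and 1712 CPM, so that only the highest dose left that range, and in sets B and C alike. The log2 fold change at 1000 µM was -0.53 (SE 0.0709, adjusted p = 3.17e-06), set-adjusted -0.35 (adjusted p = 0.0115), and inside set B -0.56 (SE 0.0491).

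HSP90B1 (GRP94), the ER member of the HSP90 family, had 1567, 1570.2 and 2008 CPM in control and 1200.3, 1280.5 and 1366 CPM at 1000 µM. Control replicate 3 was the highest of all 21, and the libraries at 1000 µM lay below all others. HSP90B1 had a log2 fold change of -0.42 (SE 0.0955, adjusted p = 0.000934), but of -0.24 (adjusted p = 0.225) when set-adjusted. CRELD2, a secreted ER protein with isomerase-like activity, had 30.6, 34.2 and 23.2 CPM in control, 25.9, 36.0 and 26.5 CPM at 100 µM and 8.24, 8.33 and 9.66 CPM at 1000 µM. At 100 µM it overlapped control, and at 1000 µM it lay well below every other library. Its log2 fold change of -1.75 (SE 0.153, adjusted p = 1.21e-08), a 3.36-fold fall, was the lowest of the 34, and was -1.92 set-adjusted.

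The nucleotide exchange factors for HSPA5 also fell at 1000 µM, SIL1 by 1.07 on the log2 scale and HYOU1 by 0.46. The set-adjusted value of HYOU1 was -0.12 (adjusted p = 0.615). SIL1 had fallen by 0.63 at 100 µM already, and its set-adjusted values were -0.55 at 100 µM and -1.06 at 1000 µM. DNAJB11 (ERdj3), a J-domain cochaperone of HSPA5, fell by 0.42 (set-adjusted value -0.31). SDF2L1, which partners DNAJB11, had a log2 fold change of -0.23 (adjusted p = 0.48) at 1000 µM and rose by 0.80 at 100 µM. MANF, a secreted factor that binds HSPA5, had 0.08 (adjusted p = 0.519) at 1000 µM and rose by 0.60 at 100 µM. Neither rise at 100 µM passed when set-adjusted, at 0.51 and 0.44. Against 100 µM, SDF2L1 and MANF were lower at 1000 µM by 1.03 and 0.52 on the log2 scale (adjusted p = 0.00413 and 0.000689).

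DNAJB9 (ERdj4), a J-domain protein that recruits HSPA5 to ERN1 and to degradation substrates, went the other way. It had 22.8, 24.7 and 27.4 CPM in control, 26.6, 22.5 and 24.4 CPM at 100 µM and 73.0, 74.8 and 65.3 CPM at 1000 µM. Every library below 1000 µM lay between 19.5 and 27.4 CPM, and the 3 at 1000 µM stood apart from them. Its log2 fold change was 1.51 (SE 0.094, adjusted p = 1.06e-10), a 2.85-fold rise, or 1.44 set-adjusted. DNAJC10 (ERdj5), a J-domain protein that reduces disulfides of degradation substrates, had 129, 120.4 and 161 CPM in control, 212, 227 and 219 CPM at 100 µM and 353, 357 and 308 CPM at 1000 µM. It stood above all controls at 100 µM and higher still at 1000 µM. Its log2 fold changes were 0.68 (SE 0.0899) and 1.31 (SE 0.0909, adjusted p = 4.51e-10), or 0.64 and 1.22 set-adjusted. DNAJC3 (p58IPK) rose by 0.86 at 1000 µM, but its set-adjusted value was 0.26 (adjusted p = 0.207). At 1 µM its replicate 3, of set B, had 80.0 CPM against 54.3 and 49.7 CPM in the others, of set A.

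The lectin chaperones CALR and CANX, which hold glycoproteins until they are folded, differed from each other. CALR (calreticulin; chromosome 19, bases 12938578 to 12944489, plus strand) had 1645, 1833 and 1678 CPM in control, 1319, 1308 and 1293 CPM at 10 µM, 1769, 1557 and 1633 CPM at 100 µM and 578, 581 and 738 CPM at 1000 µM. The 10 µM libraries lay below control and those of 100 µM overlapped it, so its levels did not follow dose. Replicate 3 at 1 µM, also of set B, had 1353 CPM against 1949 and 1945 CPM in the others. At 1000 µM the log2 fold change was -1.44 (SE 0.12, adjusted p = 5.69e-09), a 2.72-fold fall. Set-adjusted it was -1.01 (adjusted p = 2.89e-06) and inside set B -1.19 (SE 0.0501).

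CANX (calnexin), the membrane-bound counterpart of CALR, had 1318, 1271 and 1546 CPM in control and 1275, 1321 and 1183 CPM at 1000 µM, which overlapped. Its log2 fold change was -0.13 (SE 0.0834, adjusted p = 0.192). The sign changed in the set-adjusted value of 0.021, and inside set B it was 0.17 (adjusted p = 0.0159). The same comparison of 1000 with 10 µM in the set-adjusted fit of all 21 libraries gave 0.17 as well, with an adjusted p of 0.0692.

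The disulfide isomerases fell and the oxidase ERO1B rose. PDIA4 (ERp72) had 664, 688 and 656 CPM in control, 599.6, 694 and 617 CPM at 100 µM and 311, 313 and 348 CPM at 1000 µM. Control and 100 µM overlapped, and the libraries at 1000 µM lay far below both. PDIA4 had a log2 fold change of -1.05 (SE 0.0793, adjusted p = 1.58e-09), or -0.77 (adjusted p = 3.45e-05) set-adjusted. PDIA6 had 716, 769 and 778 CPM in control and 527, 547 and 529.9 CPM at 1000 µM, without overlap, a log2 fold change of -0.50 (SE 0.0631, adjusted p = 1.66e-06), or -0.46 set-adjusted. P4HB, the abundant founding isomerase of the family, fell by 1.01 on the log2 scale (SE 0.118, adjusted p = 5.97e-07; set-adjusted value -1.03), with 1893 ± 155 CPM in control and 940.0 ± 242 CPM at 1000 µM (SD over 3 libraries). Its library of set C at 1000 µM, at 1219.6 CPM, was above the 803 and 797 CPM of set B. PDIA3 (ERp57), the partner of the lectin chaperones, fell by 0.42, and the set-adjusted value was -0.23 (adjusted p = 0.225).

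ERO1B, which reoxidises the isomerases, had 4.09, 3.56 and 5.52 CPM in control, 5.47, 5.31 and 6.31 CPM at 100 µM and 11.2, 10.5 and 8.996 CPM at 1000 µM. It overlapped control at 100 µM and lay above every other library at 1000 µM, with a log2 fold change of 1.23 (SE 0.148, adjusted p = 8.61e-07), or 1.25 (SE 0.274) set-adjusted. Its paralogue ERO1A, the more abundant at 221 ± 26.01 CPM in control, was at 217 ± 32.1 CPM at 1000 µM (SD over 3 libraries). ERO1A had a log2 fold change of -0.03 (adjusted p = 0.83).

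SEC61B, a subunit of the channel through which proteins enter the ER, rose at the 3 highest doses, and its level also differed between library sets within some groups. It had 60.0, 63.2 and 58.9 CPM in control, 84.6, 76.4 and 113 CPM at 1 µM, 114, 111 and 114 CPM at 10 µM, 105, 119 and 117 CPM at 100 µM and 120.1, 125 and 85.0 CPM at 1000 µM. At 100 µM the libraries of set C had 105 and 117 CPM and that of set B 119 CPM. The 113 CPM at 1 µM belonged to the library of set B and the 85.0 CPM at 1000 µM to the library of set C. Against control SEC61B gave a log2 fold change of 0.90 at 10 µM and at 100 µM and 0.86 at 1000 µM (SE 0.134, adjusted p = 1.96e-05). All libraries of set A with caffeine, at 67.3 to 84.6 CPM, lay above the controls, although at their doses SEC61B was not called by edgeR (DESeq2 called it at 1 µM). The set-adjusted value was 0.40 (adjusted p = 0.987) at 10 µM, 0.62 (adjusted p = 0.0147) at 100 µM and 0.45 (adjusted p = 0.0286) at 1000 µM, and inside set B the difference of 1000 from 10 µM was 0.10 (adjusted p = 0.097).

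**Figure D3:**
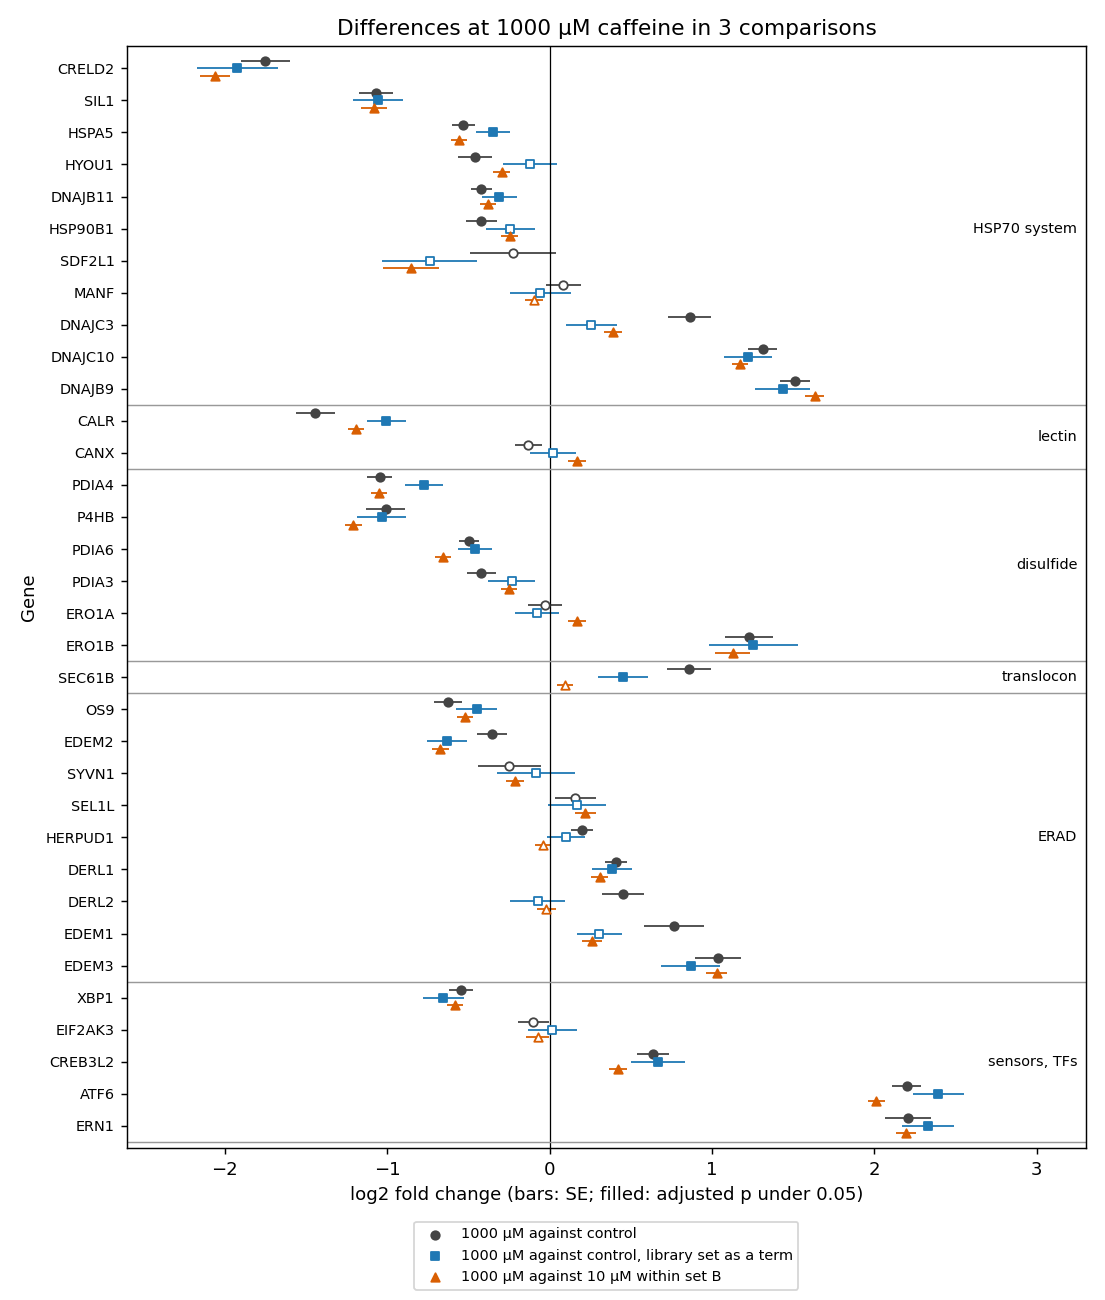
Log2 fold changes (horizontal axis) with their standard errors for the 34 tested genes, grouped by role, in 3 comparisons: 1000 µM against control, the same with the library set as a term, and 1000 µM against 10 µM inside set B. Filled symbols passed an adjusted p of 0.05. The 3 estimates lie close together for SIL1, DNAJB9, DNAJC10, ERO1B, EDEM3 and ERN1, and apart for SEC61B, EDEM1, DERL2 and DNAJC3.

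Genes of ER-associated degradation went both ways. EDEM3, which trims mannose from glycoproteins to mark them for degradation, had 45.4, 40.1 and 54.0 CPM in control, 42.7, 53.3 and 44.7 CPM at 100 µM and 103, 111 and 72.5 CPM at 1000 µM. At 1000 µM all 3 libraries lay above every other library, and that of set C was the lowest of them. The libraries below that dose ran from 33.5 to 56.4 CPM. EDEM3 had a log2 fold change of 1.04 (SE 0.142, adjusted p = 4.16e-06), or 0.87 (adjusted p = 0.000886) set-adjusted. Its relative EDEM1 rose by 0.77 on the log2 scale, with a set-adjusted value of 0.31 (adjusted p = 0.0873).

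EDEM2, the third of these mannosidase-like proteins, had 79.0, 81.5 and 69.9 CPM in control, 93.0, 95.4 and 97.1 CPM at 10 µM, 60.8, 71.4 and 58.7 CPM at 100 µM and 61.4, 59.6 and 59.4 CPM at 1000 µM. It was above control at 10 µM, overlapped it at 100 µM and was below it at 1000 µM. At 1000 µM the log2 fold change was -0.35 (SE 0.091, adjusted p = 0.00262), or -0.63 (adjusted p = 0.000445) set-adjusted. OS9, the lectin that reads the trimmed glycan, had 321, 339.6 and 278 CPM in control, 233, 224 and 220.2 CPM at 100 µM and 190.3, 194 and 225 CPM at 1000 µM. Both high doses lay below control and overlapped each other, with log2 fold changes of -0.47 (SE 0.0846) and -0.62 (SE 0.0847, adjusted p = 3.8e-06). Set-adjusted, OS9 passed at 1000 µM (-0.45, adjusted p = 0.00922) and not at 100 µM (-0.33, adjusted p = 0.0963).

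The Derlins, which help move substrates out of the ER, gave a small rise of DERL1, by 0.41 on the log2 scale (SE 0.0688, adjusted p = 4.73e-05; set-adjusted value 0.38), with 52.2 ± 2.84 CPM in control and 69.2 ± 0.393 CPM at 1000 µM (SD over 3 libraries). DERL2 rose by 0.45, but its set-adjusted value was -0.07 (adjusted p = 0.782). HERPUD1, which organises the degradation complex, rose by 0.20 at 1000 µM and fell by 0.20 at 100 µM, and neither call was kept when set-adjusted. The ubiquitin ligase SYVN1 (HRD1) and its adaptor SEL1L did not pass the test at 1000 µM, at -0.25 (adjusted p = 0.284) and 0.16 (adjusted p = 0.288). Inside set B both passed, SYVN1 at -0.21 and SEL1L at 0.22, but neither passed when 1000 and 10 µM were compared in the set-adjusted fit of all 21 libraries (adjusted p = 0.506 and 0.0801).

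Summed over members, which is governed by the abundant genes, the folding machinery was lower at 1000 µM while the other roles were not. The HSP70 system summed to 4001, 4075 and 4481 CPM in control and 3329, 3424 and 3405 CPM at 1000 µM, 80.9% of the control mean. Lectin chaperones fell from 2963, 3104 and 3225 CPM in control to 1853, 1902 and 1921 CPM (61.1%). Disulfide isomerases and oxidases had 4370.2, 4564 and 4509 CPM and then 2595, 2609.9 and 2979 CPM (60.9%). In these 3 roles the libraries at 1000 µM lay below all controls. Degradation genes had 939.7, 949.8 and 901 CPM in control and 949, 977 and 913 CPM at 1000 µM (101.8%), which overlapped, and sensors and transcription factors 613, 642 and 703 CPM and then 717, 724 and 695 CPM (109.1%). All 35 members together were at 72.9% of the control mean at 1000 µM and at 97.7% at 100 µM. These sums are a description, were not adjusted for library set and were not tested. In the 10 µM group, wholly of set B, the lectin chaperones summed to 2398 to 2494 CPM, below all controls. There the HSP70 system, at 3914 to 3960 CPM, was also below all controls. The disulfide isomerases and oxidases, at 4288 to 4376 CPM, overlapped control.

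**Figure D4:**
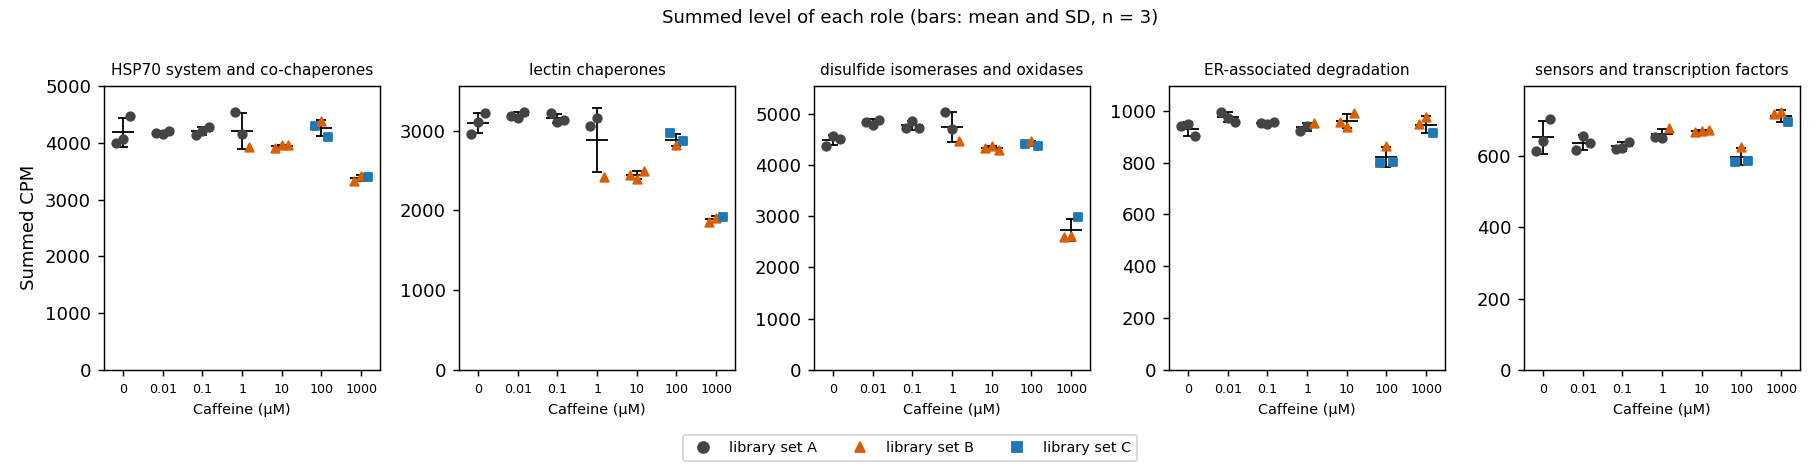
Summed CPM of the members of 5 roles (vertical axes, from 0) by caffeine dose, with 1 point per library coloured by library set and bars for the mean and SD of 3 libraries. The HSP70 system, lectin chaperones and disulfide enzymes are lowest at 1000 µM, while degradation genes and sensors at 1000 µM lie near their control levels.

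The genes that carry the printed ERSE sites were mostly among those that fell. Of these 8, 6 fell at 1000 µM (CRELD2, CALR, XBP1, HSPA5, PDIA6 and HSP90B1), 1 rose (ERO1B) and CANX did not pass, with a median log2 fold change of -0.51. The fall of HSP90B1 was not called when set-adjusted. Of the 26 other tested members 12 rose and 8 fell, with a median of 0.12, and of all features 28.5% rose and 29.1% fell. Against 100 µM the 8 gave 5 lower and 1 higher, and the 26 gave 7 lower and 9 higher, where 22.3% of all features were lower and 21.8% higher. Inside set B the 8 gave 6 lower and 2 higher (ERO1B and CANX), and the 26 gave 10 lower and 11 higher with a median of -0.03, where 35% of all features were lower and 34.1% higher. The genes with ERSE-II did not share a direction at 1000 µM, with HERPUD1 higher, HYOU1 lower and SDF2L1 not past the threshold, and none of the 3 passed when set-adjusted. Apart from XBP1, the 8 with a printed site are chaperones or folding enzymes. The 26 hold all the tested degradation genes and the other sensors and transcription factors. Among the 26, the folding genes SIL1, PDIA4, P4HB, HYOU1, DNAJB11 and PDIA3 also fell at 1000 µM, and DNAJB9, DNAJC10 and DNAJC3 rose. Element and role therefore cannot be told apart here. The difference between genes with and without an element was not tested.

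Lists of further genes of the same pathways were read in the same way, beside the 57.6% of all features called at 1000 µM. Of 12 genes listed here under the PERK arm and its downstream factors 9 rose and 0 fell, with a median log2 fold change of 0.97. They included ATF4, the factor whose translation PERK favours, with 449 ± 23.0 CPM in control and 1011 ± 115 CPM at 1000 µM (SD over 3 libraries), which rose by 1.17 on the log2 scale (adjusted p = 1.04e-08). CEBPG, a partner of ATF4, rose by 1.86 on the log2 scale, and the pseudokinase TRIB3, also on this list, by 1.61. EIF2AK3, which encodes PERK, did not pass at 1000 µM. Kinase activity was not measured, and the part of PERK in these changes was not tested. At 100 µM 2 genes of this list rose and 7 fell, with a median of -0.40 against -0.01 over all features, of which 46.6% were called. Directly between 1000 and 100 µM 11 were higher and 0 lower, where 44% of all features were called. Set-adjusted, 7 rose and 0 fell at 1000 µM (38% of all features called), and 0 rose and 4 fell at 100 µM (17.3%).

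Among 11 tested genes for other sensors and for the processing of ATF6, 3 rose and 6 fell at 1000 µM. The protease MBTPS2, which makes the second cut in ATF6, had 13.6 ± 1.52 CPM in control and 41.8 ± 1.92 CPM at 1000 µM (SD over 3 libraries), a rise by 1.62 on the log2 scale (adjusted p = 9.81e-11). Like ATF6 it had already risen at 100 µM, by 1.30 on the log2 scale (adjusted p = 6.63e-09). MBTPS1, which makes the first cut, was higher by 0.32 at 1000 µM. At 100 µM it was at -0.17 (adjusted p = 0.0266), or -0.14 (adjusted p = 0.409) set-adjusted, where MBTPS2 kept 1.23 (adjusted p = 8.44e-05). CREB3, another membrane-bound transcription factor, fell by 0.76 at 1000 µM. Set-adjusted, 2 of the list rose at 1000 µM (MBTPS2 and MBTPS1) and 1 fell (CREB3), where 38% of all features were called.

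Of 20 other folding enzymes 6 rose and 6 fell at 1000 µM (median 0.05). HSPA13, an HSP70-like protein of the microsome, had 46.5 ± 9.40 CPM in control and 196 ± 21.5 CPM at 1000 µM (SD over 3 libraries), and rose by 2.08 on the log2 scale (adjusted p = 1.27e-11). RCN1, a calcium-binding protein of the ER lumen, rose by 1.06, and DNAJB14, an ER membrane J-domain protein, by 1.30. Of 23 genes for glycan processing and translocation 6 rose and 6 fell (median -0.014). MOGS, the glucosidase that trims the first glucose, fell by 0.91, SPCS2 of the signal peptidase rose by 0.79 (0.38 set-adjusted) and SSR3 of the translocon-associated complex by 0.62 (0.44 set-adjusted). Of 20 other degradation genes 8 rose and 5 fell (median -0.00064), with UFD1, a cofactor of the VCP segregase, lower by 1.30, and ERLIN1 and the ubiquitin ligase MARCHF6 higher by 0.95 and 0.74 (0.79 and 0.49 set-adjusted). Set-adjusted, these 3 lists had 4, 3 and 5 genes that rose and 3, 2 and 3 that fell, in the order given. In that fit 38% of all features were called (18.2% higher, 19.8% lower).

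Some counts could be shared with other genes, since it was not given whether strand was used. SIL1 overlaps exons of MATR3, which went from 251 to 369 CPM between control and 1000 µM while SIL1 went from 49.8 to 23.7 CPM. DNAJB9 overlaps PNPLA8, which went from 44.9 to 29.9 CPM while DNAJB9 went from 24.9 to 71.0 CPM. In these 2 pairs the partners moved in opposite directions. CRELD2 overlaps ALG12, which moved the same way, from 27.9 to 14.1 CPM, so the values of CRELD2 are uncertain to that extent. DERL2, which went from 26.1 to 35.7 CPM, likewise overlaps MIS12, which went from 15.9 to 23.2 CPM. DNAJB11 overlaps a further locus on its own strand, ENSG00000283149, which went from 34.3 to 8.51 CPM while DNAJB11 went from 144 to 108 CPM. SYVN1, at 66.2 CPM in control and 55.8 CPM at 1000 µM, overlaps FAU on its own strand, which went from 163 to 192 CPM, and MRPL49, which went from 80.1 to 42.5 CPM. The values of DNAJB11 and SYVN1 are uncertain to that extent too. Reads of the processed pseudogene PDIA3P1 came to 0.653% of those of PDIA3, and HSPA5P1 had 0.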

How the data were processed

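The deposited table holds unnormalized, whole-number read counts for each feature in 21 HepG2 libraries of poly(A) RNA, as the authors made it. Per the submitters' processing notes, HISAT2, DESeq2 and the GRCh38 build were used, with no role or order stated. The counting tool, annotation release and use of strand are not given in the sources used here. Only 9 of the 35 identifiers carried the version of GENCODE 29, so gene positions and lengths, taken from that release, may differ from those behind the counts. Another 21 per-sample columns of the table were left unused.

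Symbols were matched by Ensembl identifier for 32264 features. Counts were filtered with filterByExpr by group (17951 features kept), scaled by TMM and given to edgeR 4.0.16 under R 4.3.3, whose robust quasi-likelihood F-test was applied in 1 fit with a mean per group, 2-sided, with Benjamini-Hochberg adjustment over all features and a threshold of 0.05. The comparison inside set B used 7 libraries less those of groups with only 1 library there, and 17090 features. CPM use TMM-scaled library sizes. Standard errors are the log2 fold change over the square root of F. The fits were tested on simulated data. The simulated counts held no difference between library sets, so that test does not bear on the confounding of dose and set.

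The 35 members, the roles and the further lists were chosen with earlier results of these data known. Values for every library of the relevant doses are given for HSPA5, HSP90B1, XBP1, ATF6, ERN1 and EIF2AK3 and for up to 3 members of each role with the smallest p in the joint test, 18 in all. From each further list up to 3 called genes with the smallest p at 1000 µM are named. Library sets were found by average linkage on centred log2 counts of the 13 mitochondrial mRNAs, at the highest mean silhouette (0.571 for 3 sets). Alternatives were DESeq2 size factors, the Wald test of DESeq2 1.42.0, all features with a count, only features averaging 5 CPM or more, the replicate number as a block, the set as a term, only control and 1 dose in the fit, and each library left out. No pair of replicates was within read-counting noise (chi-square per feature at least 3.59). The lowest count of a tested member was 116. Limits from counts describe counting error alone, because these reads carried no molecular identifiers and are not independent molecules.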

Additional observations from a re-analysis of the deposited data

How the results depend on the processing

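The counts of members called at 1000 µM against control (27) and against 100 µM (22), in the joint test (29) and inside set B (29) stayed within 1.5 times under every alternative run, and that at 0.1 µM stayed at 0. DESeq2's Wald test gave 2 at 0.01 µM, 4 at 1 µM and 10 at 10 µM, where edgeR gave 0, 0 and 6. Without a filter on low counts 2 were called at 10 µM and 10 at 100 µM. With the library set as a term 0 were called at 10 µM and 7 at 100 µM, and with only control and 100 µM in the fit 11. Leaving out each library gave 0 to 0 for the 0.01 µM and 0.1 µM groups, between 0 and 1 for 1 µM, between 1 and 8 for 10 µM, between 12 and 17 for 100 µM and between 26 and 28 for 1000 µM, with 19 to 24 for 1000 against 100 µM, 29 to 33 in the joint test and 26 to 30 inside set B. At 10 µM the count was 1 without its replicate 3, 2 without its replicate 1 or 2 or without control replicate 1, and 3 without control replicate 2. Of the values of the 18 genes for 1000 µM against control 501 kept their direction and side of the threshold under the alternatives. EIF2AK3 and CANX, not called in either fit, changed sign with the set as a term, to 0.017 and 0.021 at 1000 µM, and HSP90B1 at -0.24 no longer passed. The cause was not tested. The replicate numbers did not pair the libraries: 3 of 21 correlated best with their own number, and in 1 of 21 pairs of groups every correlation was above 0.1. With the replicate number as a block the counts were 0 at each of the 3 lowest doses, 6 at 10 µM, 16 at 100 µM, 27 at 1000 µM, 22 against 100 µM, 29 in the joint test and 29 inside set B.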
